A study of Mus musculus with 6 samples.

Results

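Integrins are adhesion receptors made of 1 alpha and 1 beta chain, and the beta chain is shared by several alpha partners. Described here are 10 genes of the beta 1, beta 7 and alpha V groups, namely the beta chains Itgb1, Itgb3, Itgb5 and Itgb7 and the alpha chains Itga1, Itga4, Itga5, Itga6, Itgae and Itgav. They were chosen by name and were all found among the 26754 gene rows of the deposited tables. RNA came from tumour-infiltrating cells bound by CD8a magnetic beads. The tumours were of B16, a mouse melanoma line grown under the skin in female C57BL/6J mice of the C57 genotype, bought at 6 to 8 weeks of age, and were taken on day 14 or on day 7 after implantation. Each day has 3 libraries, and day 14 was set against day 7. The labels give no further treatment or allele and do not say whether a library came from 1 mouse or from a pool, so p-values measure only the spread between these libraries, which may be technical.

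The beta 1 chain pairs with alpha 1, a collagen receptor, with alpha 4 and alpha 5, which bind VCAM-1 and fibronectin, with alpha 6, a laminin receptor, and with alpha V. The beta 7 chain has only the partners alpha 4, which guides lymphocytes to the gut through MAdCAM-1, and alpha E, the CD103 chain of tissue-resident CD8 T cells that binds E-cadherin. Alpha V also joins beta 3 and beta 5 to bind vitronectin, osteopontin and other matrix proteins, in tumour and myeloid cells as well as in lymphocytes.

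The tails that reach into the cell show the family relation between these chains. The coding stretches below, read 5′ to 3′ from GENCODE M21 transcripts (GRCm38), begin in capitals with the bases of the conserved membrane-proximal motif of the alpha tails, which clasps the beta chain in the resting receptor.
Itga1: GGATTCTTCAAAAGGccactaaagaagaaa
Itga4: GGATTCTTTAAAAGAcagtacaaatctatc
Itga5: GGCTTCTTCAAACGTtccctcccctacggc
Itga6: GGATTCTTTAAGCGCtctaggtacgatgac
Itgae: GGCTTTTTCAAAAGAaaatatcaacaactg
Itgav: GGCTTTTTCAAACGTgtccgaccacctcaa

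For the beta chains the capitals mark the bases of the tail motif to which talin, the main activator of integrins, binds.
Itgb1: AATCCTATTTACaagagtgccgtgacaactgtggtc
Itgb7: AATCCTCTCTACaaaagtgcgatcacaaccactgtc
Itgb3: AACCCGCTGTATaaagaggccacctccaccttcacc
Itgb5: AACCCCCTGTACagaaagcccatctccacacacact
The Itgb1 and Itgb7 stretches are identical at 26 of 36 bases, as are those of Itgb3 and Itgb5, while Itgb1 and Itgb5 share 16. Despite this likeness, no window of 50 bases in the transcript of any member occurs in another member. A window was shared with some other gene model for 8.78% of the Itgb5 transcript, 6.74% of Itga6 and 5.5% of Itga1, and for at most 0.103% of the other members. Exons of Cerkl overlap those of Itga4 and exons of Gm13684 overlap those of Itgav, both on the opposite strand, and whether the authors counted by strand is not given in the sources used here, so values of these 2 genes may hold antisense reads.

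Libraries held 11385106 to 13316522 reads in genes on day 14 and 6523019 to 9313078 on day 7. Genes with a read numbered 18318 to 19053 on day 14 and 13133 to 13806 on day 7. A chi-square ratio per fragment, which is near 1 if 2 libraries differ by sampling alone, had a median of 1.11 for the first 2 day 7 libraries. It was 40.9 and 44.4 for each of these with day 7 replicate 3, and 4.05 to 4.43 among day 14 libraries. The first 2 day 7 libraries were therefore averaged into 1 sample, so that n = 3 on day 14 and n = 2 on day 7. Melanoma transcripts exceeded those of T cells, against the label of CD8+ T cells. Summed over 12 markers fixed for T cells, RPKM (reads per kilobase of gene, scaled to library size) were 138.4 to 145.6 in day 14 libraries and 519.8 to 537.6 in day 7 libraries, with 12 and 11 of the 12 at 1 RPKM or more in every library of the day. The 6 melanoma markers summed to 10330 to 11350 RPKM on day 14 and 5581 to 5810 on day 7. The 10 macrophage markers summed to 654.7 to 672.5 RPKM on day 14 and 316.8 to 422.5 RPKM on day 7. Of the 10, 9 were at 1 RPKM or more in every day 7 library, and Cd14 was at 0.639, 0.273 and 0 RPKM there. The 6 markers of NK cells summed to 18.9 to 20.7 RPKM on day 14 and to 131 to 178 on day 7. For bulk RNA of this kind, fewer cells of a type and less RNA per cell cannot be told apart. The part of these cell types in the differences below was not tested.

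By limma on log2(RPKM + 1), with Benjamini-Hochberg adjustment over all tested genes, none of the 8 members that passed the filter on low values (a mean of 20 CPM, reads scaled to library size alone) was called at an adjusted p under 0.05. Over all 6691 tested genes 4.92% were called, 118 higher (1.76%) and 211 lower (3.15%) on day 14. The higher calls were 35.9% of all calls, against 19.3% after scaling by median of ratios, 79.0% with a filter of 1 RPKM in 2 samples and 79.5% with no filter. Thus the balance of calls turned with the filter, and not with it alone. With no weights and the same filter, 59.4% of calls were higher. The count of members also depends on the weights: with none, 1 member, Itgav, was called, and the limma adjusted p of Itgb7 was 0.0584. At an unadjusted p under 0.05 the count of members was 1, Itgb7, against 19.7% of all genes. A second tool, limma-voom on reads recovered from the RPKM, called 4 of the 8, with Itgav higher and Itga4, Itgb3 and Itgb7 lower, where it called 28.0% of all genes, 14.0% higher and 14.0% lower. The RPKM of the days did not overlap in 4 of the 8 tested members, 1 higher and 3 lower, against 51.9% of all tested genes (33.2% higher and 18.7% lower), so this share was near the background. Over the tested members the log2 fold change had a median of 0.11, beside 0.16 over all tested genes. The other 2 members, Itgb5 and Itgae, also did not overlap between the days. The share of all genes under the filter that did not overlap was not computed, so these 2 have no background beside them.

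**Figure D1:**
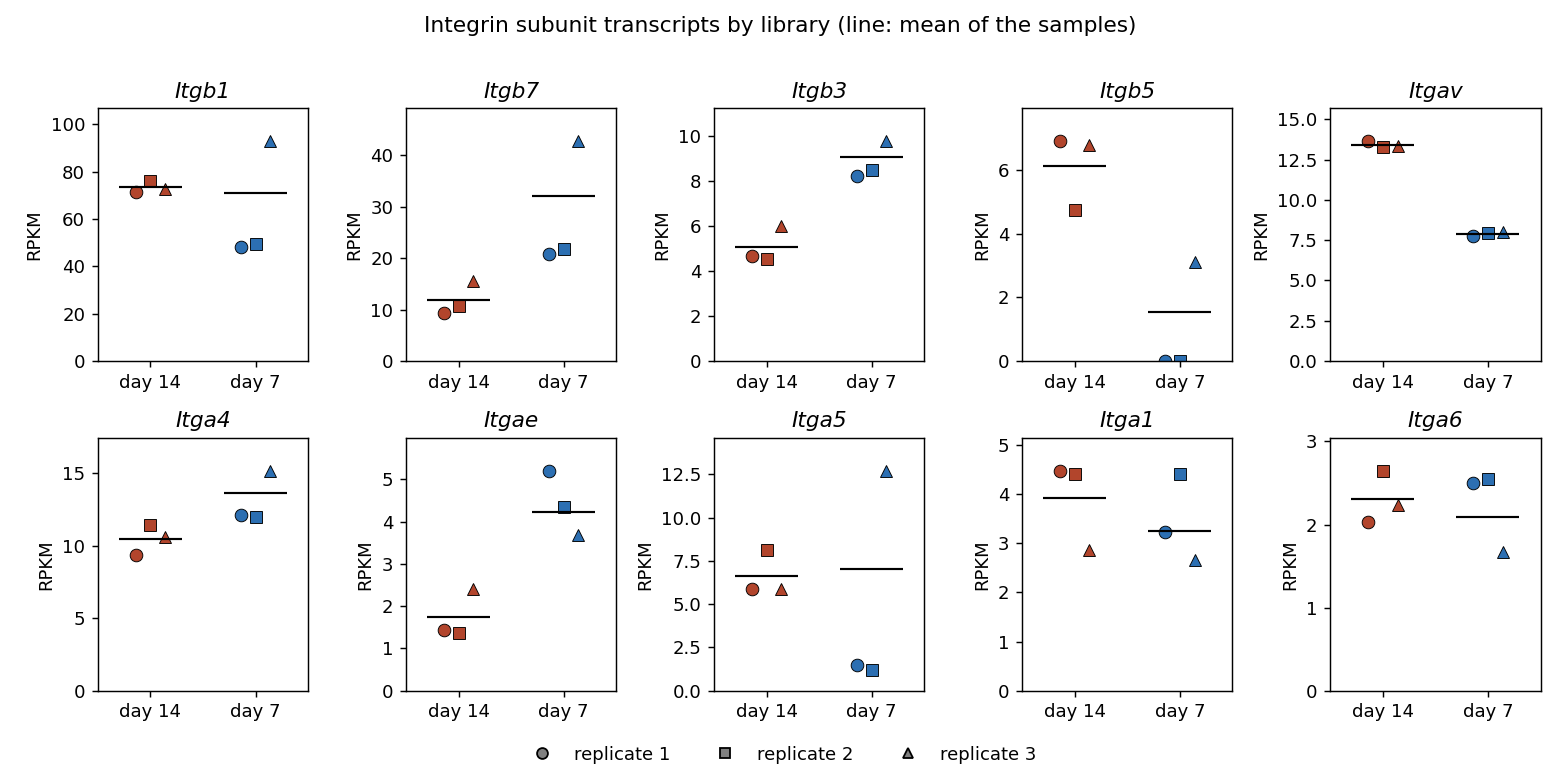
RPKM of each of the 10 integrin genes (vertical axis from 0) in the 3 day 14 and 3 day 7 libraries; symbols are libraries, and lines are means over the samples, with day 7 replicates 1 and 2 averaged first. Itgav, Itgb5, Itgb7, Itgb3, Itga4 and Itgae do not overlap between days, while day 7 replicate 3 stands apart from the other day 7 libraries for Itgb1, Itgb7 and Itga5.

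Among the beta chains Itgb1, the common partner of most alpha chains of this set, had the highest level on both days. It stood at 71.3, 76.0 and 72.9 RPKM on day 14, against 48.3, 49.6 and 92.8 RPKM on day 7 (chromosome 8, 128685654 to 128733200, plus strand of GRCm38). The day 14 libraries lay close together and between the day 7 values, of which replicate 3 was the high one. Means were 73.4 ± 2.4 RPKM on day 14 (SD, n = 3) and 70.9 ± 31 RPKM on day 7 (SD, n = 2), a log2 fold change of 0.12 with a 95% interval of -0.42 to 0.66 (limma adjusted p = 0.834). Scaling by median of ratios turned it to -0.026. Without day 7 replicate 3 the log2 fold change was 0.58 (limma adjusted p = 0.000816), where the day 7 sample left is assumed to vary like the day 14 libraries. In that setting 58.0% of all genes and 5 of the 8 members were called, Itgb1, Itga5 and Itgav higher and Itgb3 and Itgb7 lower.

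Itgb7, the lymphocyte beta chain, had the lowest fold change among the tested members. Values were 9.41, 10.7 and 15.6 RPKM on day 14, against 20.8, 21.8 and 42.7 RPKM on day 7 (chromosome 15, 102215995 to 102231935, minus strand). Every day 14 library was below every day 7 library, and day 7 replicate 3 had about 2 times the level of the other 2. The means of 11.9 ± 3.2 RPKM on day 14 (SD, n = 3) and 32.0 ± 15 RPKM on day 7 (SD, n = 2) gave a log2 fold change of -1.30 (SE 0.44, 95% interval -2.27 to -0.33, limma adjusted p = 0.133). Without day 14 replicate 3, the highest of its day, the limma adjusted p was 0.031 (4.61% of all genes called). Without day 7 replicate 3, which leaves 1 day 7 sample, the log2 fold change was smaller, at -0.82. Across the alternatives other than this one the limma adjusted p lay between 0.0165 and 0.254. The highest value came with scaling to the T cell markers. Of the 12 T cell markers 11 were lower in every day 14 library than in any day 7 library, and Cd5 overlapped, and the 6 NK cell markers were all lower in this way. Over all tested genes 18.7% were lower without overlap, counted on the 5 samples and not on the 6 libraries. The part of T cells and NK cells in the Itgb7 values was not tested.

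Itgb3, which pairs with alpha V and, on platelets, with alpha IIb, was at 4.69, 4.53 and 6.01 RPKM on day 14, against 8.21, 8.48 and 9.77 RPKM on day 7 (chromosome 11, 104608000 to 104670476, plus strand). All day 14 libraries were lower, and the log2 fold change of -0.73 had a 95% interval of -1.56 to 0.096 (limma adjusted p = 0.312). Its platelet partner Itga2b had 0.322, 0.0584 and 0.551 RPKM on day 14 and 0 reads on day 7. The 5 platelet markers summed to 22.3 to 31.3 RPKM on day 14 and 1.70 to 2.98 RPKM on day 7. Nearly all of this was 1 gene, Pf4, at 27.8, 31.0 and 21.1 RPKM on day 14. Gp9 had 0 reads in every library, and Ppbp and Gp1bb were at most 0.487 and 0.559 RPKM. Of the 5, Pf4 and Itga2b were higher in every day 14 library, and the other 3 overlapped. The part of platelets in the Itgb3 values was not tested. Itgb5, the other partner of alpha V, is a chain of matrix-adherent cells and macrophages. It had 6.90, 4.74 and 6.77 RPKM on day 14 (264, 200 and 303 reads), against 0, 0 and 3.10 RPKM on day 7, where replicate 3 had 68 reads. A count of 0 allows up to 3 fragments, or 6 reads, which would have been 0.224 and 0.192 RPKM in day 7 replicates 1 and 2, a limit that covers counting error only. Itgb5 was below the filter, with a mean of 14.5 CPM, and has no test in the comparison above. With a filter of 1 RPKM in 2 samples its log2 fold change was 1.80 (limma adjusted p = 0.156), where 11.2% of all genes were called. Of the macrophage markers, 7 of 10 were higher in every day 14 library than in any day 7 library, Fcgr1 was lower in every one, and Adgre1 and C1qc overlapped. Of the melanoma markers 5 of 6 were higher in this way, with Pmel overlapping. Over all tested genes 33.2% were higher without overlap, counted on the 5 samples and not on the 6 libraries. The part of macrophages and melanoma cells in the Itgb5 values was not tested.

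Shares among the beta chains describe their make-up apart from library scaling. Itgb7 made up 10.2%, 11.2% and 15.4% of the summed RPKM of the 4 beta chains in day 14 libraries, against 26.9%, 27.3% and 28.8% in day 7 libraries. Itgb1 made up 77.2%, 79.2% and 72.0% on day 14 and 62.5%, 62.1% and 62.5% on day 7, so day 7 replicate 3, with its far higher levels, had nearly the same shares of Itgb1 and Itgb7 as the other day 7 libraries.

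**Figure D2:**
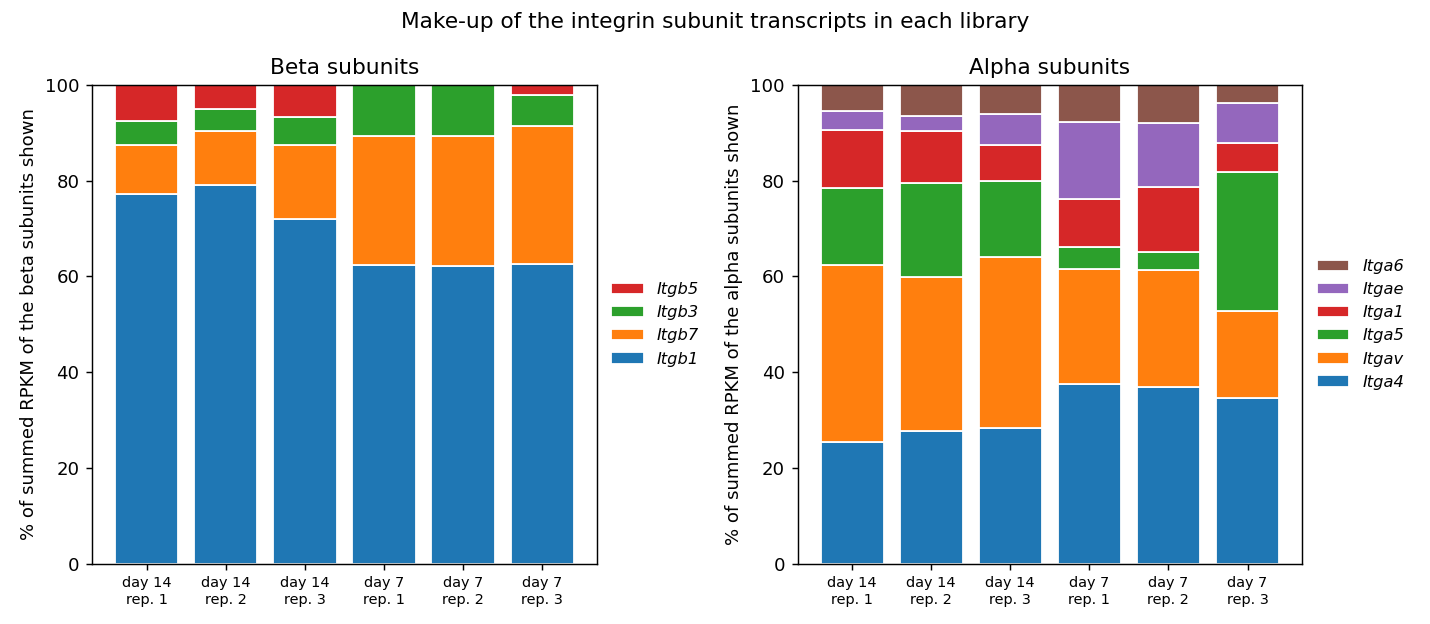
Share (%) of each gene in the summed RPKM of the 4 beta chains (left) and of the 6 alpha chains (right) in each library, day 14 left of day 7. Itgb7 takes 10.2% to 15.4% of the beta chains on day 14 and 26.9% to 28.8% on day 7, and Itgav takes 32.2% to 37.0% of the alpha chains on day 14 and 18.2% to 24.4% on day 7.

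Of the alpha chains, Itgav was the one that stood higher on day 14. It was at 13.6, 13.3 and 13.4 RPKM on day 14, against 7.75, 7.94 and 7.98 RPKM on day 7 (chromosome 2, 83724397 to 83806916, plus strand). Libraries of 1 day were within a narrow range and the days were apart, with means of 13.4 ± 0.18 RPKM on day 14 (SD, n = 3) and 7.91 ± 0.093 RPKM on day 7 (SD, n = 2). The log2 fold change was 0.69 (SE 0.35, 95% interval -0.087 to 1.48, limma adjusted p = 0.31). That SE rests on the variance of genes of a similar level, since the weights come from a trend over all genes. With no weights the limma adjusted p was 0.0451 (15.1% of all genes called), and with 6 libraries counted singly 0.0343 (23.4% called). Without day 7 replicate 3, which leaves 1 day 7 sample, the log2 fold change was 0.71.

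Itga4, the alpha chain shared by beta 1 and beta 7, was the second highest alpha chain on day 14 and the highest on day 7. Levels were 9.38, 11.4 and 10.6 RPKM on day 14, against 12.1, 12.01 and 15.2 RPKM on day 7 (chromosome 2, 79255426 to 79333123, plus strand). The day 14 libraries were all lower, by a log2 fold change of -0.35 with a 95% interval of -1.09 to 0.40 (limma adjusted p = 0.618). Itgae, the CD103 chain, was at 1.44, 1.36 and 2.41 RPKM on day 14, against 5.20, 4.36 and 3.68 RPKM on day 7 (chromosome 11, 73090583 to 73147446, plus strand). Again the days did not overlap, but the reads were few, 75 to 147 per library on day 14 and 110 to 190 on day 7, and its mean of 12.5 CPM was below the filter. With the filter of 1 RPKM in 2 samples the log2 fold change was -0.95 (limma adjusted p = 0.336). A list of 6 markers was drawn up for type 1 dendritic cells, which also carry alpha E, but not all of its genes are particular to that type. Its sum was 7.91 to 9.17 RPKM on day 14 and 10.3 to 15.6 on day 7. Of the 6, Batf3 was lower in every day 14 library, Flt3, Zbtb46 and Cd209a were higher in every one, and the other two overlapped, with Xcr1 at 0 in day 7 replicate 3 and Clec9a at 0 in the other 2 day 7 libraries. The part of these cells in the Itgae values was not tested.

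Itga5, the fibronectin receptor chain, had 5.87, 8.14 and 5.85 RPKM on day 14, against 1.47, 1.21 and 12.7 RPKM on day 7 (chromosome 15, 103344286 to 103366763, minus strand). Here day 7 replicate 3 was above and the other 2 day 7 libraries below every day 14 library, and the interval was wide (log2 fold change 0.42, 95% interval -1.05 to 1.88, limma adjusted p = 0.781). Without day 7 replicate 3 the log2 fold change was 1.69, in a fit with 1 day 7 sample and so with no spread within day 7. Itga1, the collagen receptor chain that marks resident T cells together with CD103, was at 4.48, 4.42 and 2.87 RPKM on day 14, against 3.23, 4.41 and 2.66 RPKM on day 7. Itga6, the laminin receptor chain, was at 2.03, 2.65 and 2.23 RPKM on day 14, against 2.50, 2.55 and 1.67 RPKM on day 7. Both overlapped between the days, with log2 fold changes of 0.21 (95% interval -1.12 to 1.54) and 0.10 (95% interval -0.97 to 1.18) and limma adjusted p-values of 0.886 and 0.936. By limma-voom, which scales by trimmed means, both turned to the other sign, at -0.11 for Itga1 and -0.20 for Itga6.

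Ordered by level, day 14 ran from Itgb1 over Itgav, Itgb7, Itga4, Itga5, Itgb5, Itgb3, Itga1 and Itga6 to Itgae. Neighbours whose ranges overlapped there were Itgav with Itgb7, Itgb7 with Itga4, Itga5 with Itgb5, Itgb5 with Itgb3, and Itga6 with Itgae. On day 7 the order was Itgb1, Itgb7, Itga4, Itgb3, Itgav, Itga5, Itgae, Itga1, Itga6 and Itgb5, where the ranges overlapped between Itgav and Itga5, Itga5 and Itgae, Itgae and Itga1, and Itga6 and Itgb5. Summed over the 6 alpha chains the level was 36.8, 41.3 and 37.3 RPKM on day 14, against 32.3, 32.5 and 43.8 RPKM on day 7. The 4 beta chains summed to 92.3, 96.0 and 101.2 RPKM on day 14, against 77.2, 79.8 and 148.4 RPKM on day 7, so beta transcripts outnumbered alpha transcripts per length in all 6 libraries.

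Ratios between 2 chains within a library do not depend on how libraries are scaled. Itgb7 had 0.132, 0.141 and 0.214 times the RPKM of Itgb1 on day 14, against 0.430, 0.439 and 0.460 times on day 7. This was a log2 difference of -1.50, with a spread within days of 0.38 on day 14 (SD, n = 3) and 0.058 on day 7 (SD, n = 2). A two-sided exact permutation test, with 10 arrangements of 5 samples, gave p = 0.1, the smallest possible, and 0.225 adjusted over the 9 ratios computed. Itgb1 had 0.813, 0.829 and 0.769 times the RPKM of Itgb2, the beta chain of LFA-1 and of myeloid integrins, on day 14, against 0.354, 0.376 and 0.490 times on day 7 (log2 difference 0.93, exact permutation p = 0.1, adjusted 0.225).

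Among ratios of an alpha chain to its beta partner, Itga4 was at 0.131, 0.151 and 0.145 times Itgb1 on day 14 and 0.251, 0.242 and 0.163 times on day 7 (log2 difference -0.50, exact permutation p = 0.1, adjusted 0.225). Relative to Itgb7 the order was the other way, with Itga4 at 0.996, 1.07 and 0.679 times on day 14 and at 0.584, 0.552 and 0.355 times on day 7 (log2 difference 1.00, exact permutation p = 0.2, adjusted 0.36). The ratio of Itgav to Itgb1 was 0.191, 0.175 and 0.183 on day 14 and 0.161, 0.160 and 0.0859 on day 7 (log2 difference 0.64, exact permutation p = 0.1, adjusted 0.225). Itgae stood at 0.153, 0.126 and 0.155 times Itgb7 on day 14, within the 0.251, 0.200 and 0.0862 times of day 7 (log2 difference 0.048, exact permutation p = 0.9, adjusted 1). The ratios of Itga5 and Itga6 to Itgb1 also overlapped between the days. Without day 7 replicate 3 the log2 differences moved to -0.80 for Itga4 to Itgb1, 0.66 for Itga4 to Itgb7, 0.19 for Itgav to Itgb1 and 1.70, in place of 0.54, for Itga5 to Itgb1. Itgb5 had 0 reads in day 7 replicates 1 and 2, so its ratio to Itgb1 was computed only with a pseudocount of 1 RPKM, which gave a log2 difference of 1.68 (exact permutation p = 0.1, outside the 9 adjusted ratios). The pairs Itgav with Itgb3 and Itga1 with Itgb1 were added after their values were seen and have no test. Itgav stood at 2.91, 2.93 and 2.22 times Itgb3 on day 14, against 0.945, 0.936 and 0.817 times on day 7, a log2 difference of 1.60 without overlap. Itga1 stood at 0.0628, 0.0581 and 0.0394 times Itgb1 on day 14, against 0.0669, 0.0891 and 0.0287 times on day 7, with overlap.

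**Figure D3:**
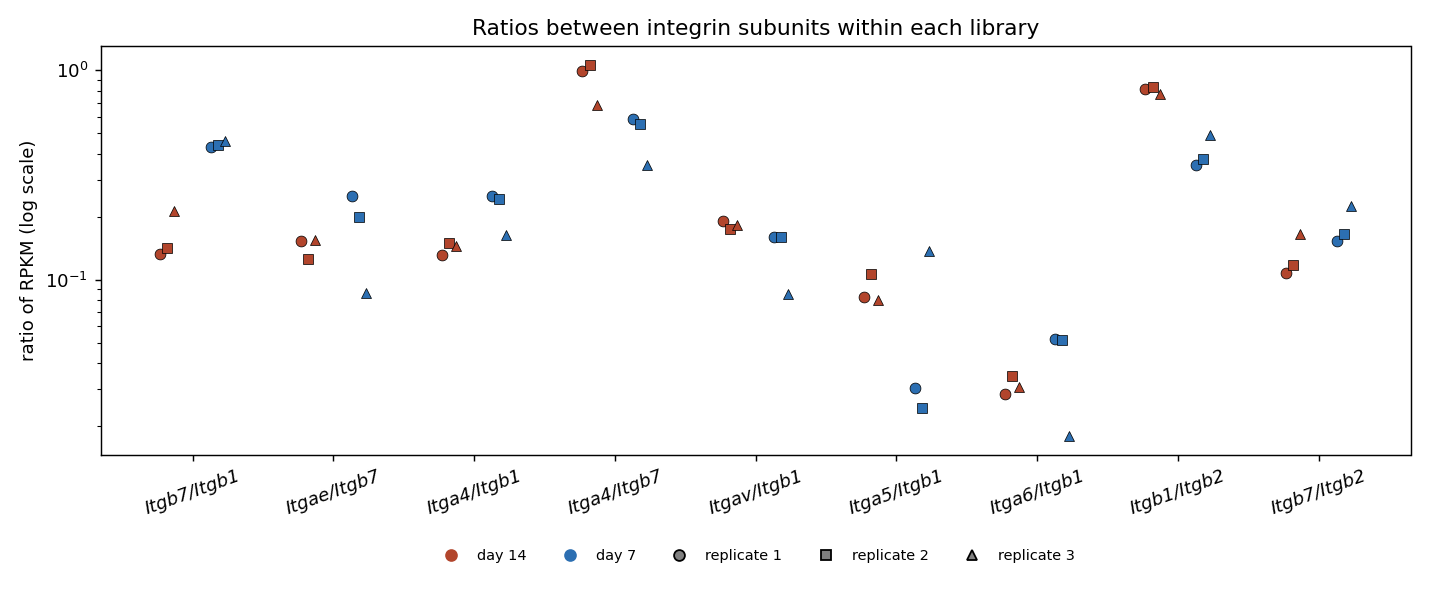
Ratio of the RPKM of 2 integrin chains within each library (log axis), day 14 left of day 7 in each pair of clusters; symbols are replicates. Itgb7 to Itgb1 lies at 0.132 to 0.214 on day 14 and at 0.430 to 0.460 on day 7, and Itgb1 to Itgb2 at 0.769 to 0.829 on day 14 and 0.354 to 0.490 on day 7.

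Because T cell markers took a smaller share of reads on day 14, the same changes were also computed per summed RPKM of the 12 T cell markers. On this scale the median log2 fold change of all tested genes was 1.85 and 94.2% of them were called higher. Of the members 7 of 8 were called higher, which is near that background. Itgb7 was the exception, at a log2 fold change of 0.50 with a 95% interval of -0.39 to 1.38 (limma adjusted p = 0.254). Itgb3 at 0.91, Itga6 at 1.33, Itga4 at 1.39 and Itga1 at 1.62 were also below the median of all genes. Itga5 at 1.88, Itgb1 at 1.99 and Itgav at 2.37 were above it. Thus the sign of Itgb7, Itgb3 and Itga4 turned with this scaling.

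**Figure D4:**
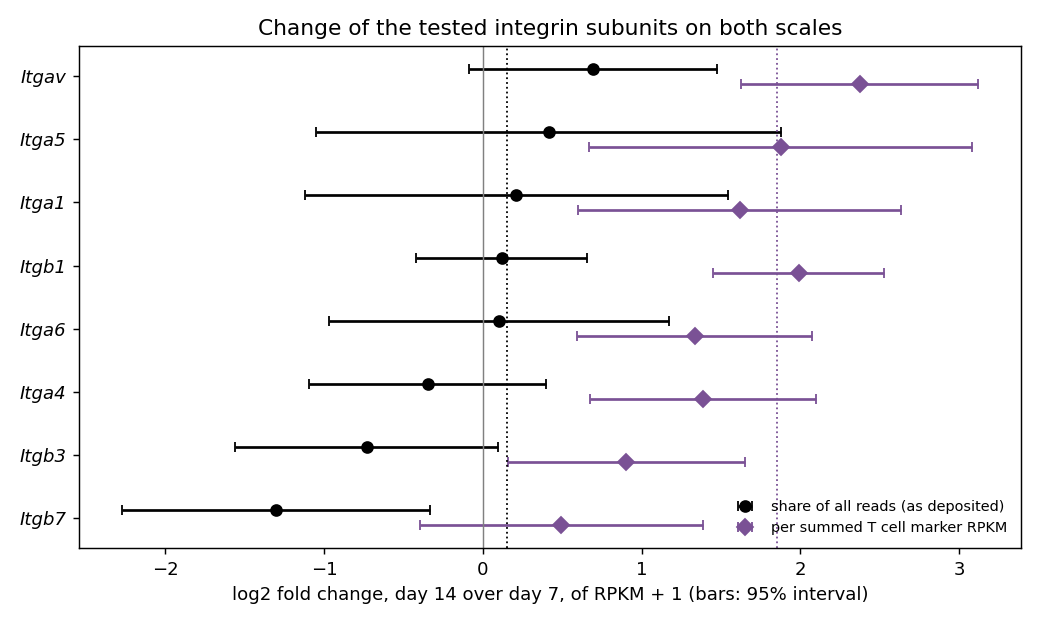
Log2 fold change (day 14 over day 7) of RPKM + 1 for the 8 tested members, with 95% intervals, as a share of all reads (circles) and per T cell marker RPKM (diamonds); dotted lines are the medians of all tested genes, 0.16 and 1.85. Itgav is highest and Itgb7 lowest on both scales, and the interval of Itgb7 alone spans 0 per T cell marker.

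Genes whose values over the 5 samples were nearest to those of a member were found from the root mean square difference of centred log2(RPKM + 1) among the 6690 other tested genes. For Itgb7 they were mt-Tr, Gse1 and Myd88, at 0.18 to 0.20. Itgav had Mns1, Fam174b and Serf2 at 0.036 to 0.037, Itgb3 had H2-K1, Cntln and Mndal at 0.076 to 0.088, and Itga4 had Pi4ka, Sf3b6 and Nxf1 at 0.040 to 0.045. Itgb1 had Zcchc8, Atp5o and Gpkow at 0.028 to 0.036, Itga6 had Gxylt2, Gm12940 and Erlin2 at 0.035 to 0.037, Itga1 had RP23-264J18.6, Atp9a and 5830417I10Rik at 0.067 to 0.078, and Itga5 had Cpsf7, Rptor and Gpn1 at 0.13 to 0.14. The nearest genes of Itgb7 were thus the least alike among the 8 members.

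Of the 19 ligands of these receptors in the list used, 7 passed the filter, and 5 of the 7 had a fold change above 0. Called were 2 higher and 0 lower, where 1.76% of all tested genes were called higher and 3.15% lower. The median log2 fold change of the 7 was 0.80, beside 0.16 for all tested genes. Fn1, fibronectin, the ligand of alpha 5 beta 1, was at 32.0, 36.5 and 33.9 RPKM on day 14, against 9.64, 9.48 and 8.40 RPKM on day 7 (log2 fold change 1.82, SE 0.34, limma adjusted p = 0.0105). Thbs1, thrombospondin, a ligand of alpha V beta 3 and of CD47, was at 36.6, 37.4 and 35.9 RPKM on day 14, against 8.97, 10.3 and 4.82 RPKM on day 7 (log2 fold change 2.26, SE 0.40, limma adjusted p = 0.00772). Both were higher in each day 14 library than in any day 7 library. Spp1, osteopontin, was the most abundant ligand, at 122.6 ± 4.2 RPKM on day 14 and 138.6 ± 29 RPKM on day 7, and gave no call (limma adjusted p = 0.652).

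The basement membrane genes also gave no call. Col4a1 was at 28.8 ± 1.2 RPKM on day 14 and 17.6 ± 4.5 on day 7, and Col4a2 at 10.0 ± 1.5 RPKM on day 14 and 2.50 ± 0.99 on day 7. Lamc1, a laminin chain, was at 23.5 ± 1.5 RPKM on day 14 and 13.9 ± 6.9 on day 7. Not all went this way: Lama4, another laminin chain, overlapped, at 6.76, 6.26 and 6.85 RPKM on day 14 against 8.40, 7.97 and 5.41 on day 7. Among the ligands of the beta 7 receptors, Madcam1, Cdh1 and Vcam1 were low, while Fn1, given above, was not. Madcam1 had 0 reads in the 6 libraries, where 3 fragments, or 6 reads, would have been at most 0.648 RPKM. Cdh1, which encodes E-cadherin, was at 1.57 to 2.23 RPKM on day 14 and at 0 to 1.21 on day 7, and Vcam1 at 1.98 to 2.18 RPKM on day 14 and 0.173 to 1.25 on day 7.

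Other chains that pair with the same partners were scarce. Of 11 such subunits, 8 were under 1 RPKM in all 6 libraries and only Itga9, a tenascin and VCAM-1 receptor chain, was tested, at 6.99 ± 1.4 RPKM on day 14 and 3.94 ± 0.40 on day 7 (limma adjusted p = 0.568). Itgb8, an alpha V partner that activates latent TGF-beta, had 0 to 0.111 RPKM on day 14 and 0 to 1.42 on day 7. In the beta 2 family 2 of 4 tested genes were called lower, against 3.15% of all tested genes, and 1 of the 4 had a fold change above 0. Itgal, the LFA-1 alpha chain, had a log2 fold change of -1.66 and Itgb2 one of -0.80 (limma adjusted p = 0.00383 and 0.0225). Scaled to the T cell markers they were at 0.16 and 1.09, so both signs turned and Itgal was no longer called. In the same family, Itgam, an alpha chain of macrophages and neutrophils, was at 52.7 ± 0.87 RPKM on day 14 and 36.8 ± 1.0 on day 7 (limma adjusted p = 0.252), and Itgax, the CD11c chain, at 9.21 ± 1.5 RPKM on day 14 and 14.2 ± 7.8 on day 7 (limma adjusted p = 0.542). Whether Itgb7 and Itgb2 differed in their change is given by their ratio, at 0.107, 0.117 and 0.165 on day 14 and 0.152, 0.165 and 0.225 on day 7, with a log2 difference of -0.57 (exact permutation p = 0.3, adjusted 0.45), or -0.32 without day 7 replicate 3.

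None was called of 12 tested genes, from 15 listed, of the adhesion complex that forms at integrin tails (median log2 fold change 0.090, 7 of the 12 above 0). Nor was any of 6 genes, from 11 listed around TGF-beta, the cytokine that induces Itgae (median -0.081, 2 of the 6 above 0). The same held for 6 tetraspanins and other lateral partners, from 9 listed (median 0.058). Genes under the filter had no test. Of these, Src was at 5.8 to 6.9 RPKM on day 14 and 0.37 to 1.1 on day 7. Cd81 was at 5.4 to 8.9 RPKM on day 14 and 0.85 to 2.2 on day 7, and Cd151 at 7.2 to 9.9 and 1.6 to 4.1. Lims1, Bcar1 and Cd9, also under the filter, overlapped between the days. Ptk2, the focal adhesion kinase, was at 27.4 ± 3.2 RPKM on day 14 and 13.1 ± 7.5 on day 7, and the linker Ilk at 16.1 ± 1.3 RPKM on day 14 and 15.1 ± 2.6 on day 7. The actin cross-linker Actn4 stood at 48.1 ± 3.7 RPKM on day 14 and 45.2 ± 3.9 on day 7, and Actn1 at 19.8 ± 4.0 RPKM on day 14 and 18.1 ± 7.4 on day 7. Other genes of this complex were lower in every day 14 library. Ptk2b was at 8.8 to 9.8 RPKM on day 14 and 15.0 to 17.9 on day 7, and Parvg at 3.7 to 6.3 and 14.6 to 17.5. Tgfb1 was at 7.24 ± 0.78 RPKM on day 14 and 7.94 ± 2.1 on day 7, and its receptor chain Tgfbr2 at 6.39 ± 0.39 RPKM on day 14 and 6.06 ± 3.4 on day 7. Ltbp3, which binds latent TGF-beta, was at 10.3 ± 2.1 RPKM on day 14 and 5.03 ± 1.5 on day 7, and the signal transducer Smad3 at 5.55 ± 1.1 RPKM on day 14 and 6.86 ± 5.7 on day 7. Runx3, also on that list, was lower in every day 14 library, at 2.0 to 3.2 RPKM on day 14 and 5.2 to 7.8 on day 7. Among the lateral partners, Bsg, a glycoprotein that associates with beta 1 integrins, came nearest to a call, at 558.4 ± 20 RPKM on day 14 and 413.7 ± 6.9 on day 7 (limma adjusted p = 0.0556). The tetraspanin Cd63, the amino acid transporter chain Slc3a2 and Emb, a relative of Bsg, had limma adjusted p-values of 0.502, 0.45 and 0.787.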

How the data were processed

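Values were deposited as RPKM by the authors, 1 table per library, which scale the reads of a gene to its length and to all reads in genes, as recovered from the values; per the file headers, each table also gives gene lengths. Per the submitters' processing notes, Trimmomatic 0.36, featureCounts of Subread 1.5.1 and GRCm38 were used; the sources used here do not give the aligner, the strand setting of the counting or how molecular identifiers were used (the kit was stranded, per the labels' protocols). Value times length gave whole reads in every gene (largest deviation 4.1e-05), and most low read numbers were even, so 2 reads stand for 1 fragment. Day 7 replicates 1 and 2 were averaged.

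limma 3.58.1 in R 4.3.3 was fitted to log2(RPKM + 1) of genes whose mean over the samples reached 20 CPM, with 1 coefficient for the day, weights per day taken from variance smoothed against mean by loess (span 0.3, floor 0.005) and a trended prior; it was tested on simulated data. A fold change on this scale understates the change of low genes. Genes with an adjusted p under 0.05 were called. The members, lists, markers, filter, weights and averaging were chosen with earlier results of these data known. In those results, with weights of this kind whose exact settings could not be reproduced, Itgb7 was called. Named from each list were all called genes and up to 4 uncalled ones with the highest mean. Further genes were named after their values were seen, namely Itgb8, Itga2b, Madcam1, Cdh1, Vcam1, Src, Lims1, Bcar1, Cd9, Cd81, Cd151 and the single markers. So were Lama4, Ptk2b, Parvg and Runx3. Permutation tests were exact and two-sided. limma-voom used trimmed-mean (TMM) factors from an own implementation. Depth was lower on day 7, and with 2 day 7 samples precision is limited.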

Additional observations from a re-analysis of the deposited data

How the results depend on the processing

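Under the 15 alternatives the number of genes called moved from 329 to 1528 with a filter of 1 RPKM in 2 samples, 1450 with no filter, 1011 with no weights, 6321 with the T cell scaling, 1560 with 6 libraries counted singly and 1874 by limma-voom, and stayed within 1.5 times with a pseudocount of 0.1 (317) and median-of-ratios scaling (352). Calls were higher on day 14 in 35.9% of cases, in 19.3% after scaling by median of ratios (median of all genes 0.021 in place of 0.16), in 99.7% with the T cell scaling, in 79.0% with the 1 RPKM filter and in 79.5% with no filter, and in 58.5% to 62.8% with no weights, with 6 libraries counted singly or without day 7 replicate 3. Leaving out 1 library gave 260 to 3907 calls, the most without day 7 replicate 3, where a lone day 7 sample is assumed to vary like day 14. The number of integrin members called was 0, and it became 1 (Itgav) with no weights, 7 with the T cell scaling, 2 (Itgav and Itgb7) with 6 libraries counted singly and 4 by limma-voom; leaving out 1 library gave 0 to 5, with 1 (Itgb7) without day 14 replicate 3 and 5 without day 7 replicate 3. Correlations of deviations between same-numbered libraries, of -0.019, -0.013 and -0.036, showed no pairing by replicate number. They could hardly show one for day 7 replicates 1 and 2, which were nearly alike. With a replicate block over 6 libraries 1162 genes and 1 member, Itgb7, were called. Fold changes turned sign for Itgb1 with median-of-ratios scaling (-0.026), for Itga4 (1.39), Itgb3 (0.91), Itgb7 (0.50), Itgal (0.16) and Itgb2 (1.09) with the T cell scaling, for Itga1 (-0.11) and Itga6 (-0.20) by limma-voom, and for Itga6 without day 7 replicate 3 (-0.098). The log2 difference of the Itgae to Itgb7 ratio turned to -0.18 with 6 libraries counted singly, with or without the block, and lay at -0.64 to 0.14 with 1 library left out; that of Itga6 to Itgb1 turned to -0.22 in the same 2 settings and to -0.016 with a pseudocount of 1 RPKM, and lay at -0.73 to 0.10 with 1 library left out. The cause of these moves was not tested. Without day 7 replicate 3 the log2 differences of Itgav to Itgb1 and Itgb7 to Itgb2 were 0.19 and -0.32, against 0.64 and -0.57. Fn1 and Thbs1 were called under all 15 alternatives. Few reads limit Itgae (75 in day 14 replicate 1), Itgb5 (0 in day 7 replicates 1 and 2) and Itga5 (52 and 50 there).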
